A study of Mus musculus with 4 samples.

Results

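Hsd3b5, Hsd3b2, Hsd3b3, Elovl3, Susd4, Moxd1 and Serpina3k are liver genes linked to the pulses in which growth hormone is released. They were followed here through 4 arrays of mouse liver. The 7 genes were taken by name and have 9 probes, out of 34743 genes and 55681 probes on the array. They had been picked with their values on these arrays in view, so those values describe the genes and test nothing. Male C57BL/6 mice, a common inbred strain, were 5 weeks old when a diet high in fat and sucrose began. Liver RNA was measured after 0, 5, 10 and 15 weeks of feeding, at ages of 5, 10, 15 and 20 weeks. Each time point has 1 array. Although 4 mice per feeding time are named in the series text, pooling of their RNA is not stated. Age and time on the diet cannot be told apart in this design, and mice kept on a control diet to the same ages are not analysed here.

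Growth hormone leaves the pituitary of adult male rodents in separate pulses and that of females more continuously, and the male pattern is set up around sexual maturation. In hepatocytes each pulse acts through the growth hormone receptor and the kinase JAK2 on the transcription factor STAT5B. The resulting on and off activity of STAT5B keeps male-biased liver genes high and many female-biased genes low. Hsd3b5 and Elovl3 are standard examples of the male-biased class. No growth hormone measurement is part of these data, so the label of the 7 genes is background knowledge.

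Since no time point was repeated, no difference between times has a replicate or a test. A level is the log2 of a spot's background-subtracted fluorescence minus the 75th percentile of its array. It can be followed over time for 1 probe and not set against another probe. Genes are called measured where the brightest probe stood well above background at both times compared, and higher or lower from a 2-fold difference on. Signal well above background was read from 44.5% to 48.3% of spots, for 17885 to 19228 genes, and no spot was saturated. Spots of 1 repeated probe differed by a median SD of 0.0637 to 0.0744 on the log2 scale. That covers error between spots, not between animals. The median measured gene stood 0.02 below its 0-week level at 5 weeks and 0.25 below it at 15 weeks. Differences and calls are given without taking off that shift. All 10 hepatocyte markers looked for, Alb and Apoa1 among them, were well above background on every array. Of 7 adrenal and gonad markers on the array, Cyp11a1, Cyp11b1, Cyp11b2 and Mc2r never were, Nr5a1 and Fdx1 were on all 4 arrays and Star on 3. Fdx1 encodes a mitochondrial ferredoxin that liver also uses.

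The 3 steroid dehydrogenase genes among the 7 lie on the minus strand of chromosome 3 and are close copies of each other, so how far their probes are alike bears on every value that follows. The stretches of 30 bases shown here are from the 60-base probes in the scanner files, with the longest run common to a pair in capitals. Hsd3b5 and Hsd3b4, a relative outside the 7 genes, share 23 bases. Hsd3b3 and 1 of the 3 Hsd3b2 probes share 16 bases.
Hsd3b5 probe, bases 31 to 60: ttgATACCTTTATGAAGCTCAAAGAAcaat
Hsd3b4 probe, bases 24 to 53: cccATACCTTTATGAAGCTCAAAGAAaaga
Hsd3b3 probe, bases 27 to 56: tgaagctCAATGGAAGAAACAATaaatatt
Hsd3b2 probe A_55_P2036547, bases 1 to 30: gccCAATGGAAGAAACAATtatttgtcaat
The Hsd3b4 probe was not well above background on any of the 4 arrays, including the 5-week array, where the Hsd3b5 spot was brightest. No signal was thus read from the probe that shares the 23 bases.

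The sequence just before the gene start is also shared within the family. Windows of 250 bases upstream of the start are from RefSeq, build GRCm38.p6, and 5 of the 7 genes matched an entry. Hsd3b5 lies at chr3:98645535-98645784 and Hsd3b3 at chr3:98762411-98762660, both on the minus strand. Aligned, they hold 156 identical bases, or 62.4% of the window. They are shown because Hsd3b5 and Hsd3b3 took courses of very different size over the 4 arrays. Capitals mark the longest identical run, which has 24 bases.
Hsd3b5: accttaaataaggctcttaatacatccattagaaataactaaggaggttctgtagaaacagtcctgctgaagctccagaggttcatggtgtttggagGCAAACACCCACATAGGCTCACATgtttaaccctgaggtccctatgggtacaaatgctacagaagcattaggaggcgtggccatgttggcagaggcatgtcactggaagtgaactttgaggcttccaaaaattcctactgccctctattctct
Hsd3b3: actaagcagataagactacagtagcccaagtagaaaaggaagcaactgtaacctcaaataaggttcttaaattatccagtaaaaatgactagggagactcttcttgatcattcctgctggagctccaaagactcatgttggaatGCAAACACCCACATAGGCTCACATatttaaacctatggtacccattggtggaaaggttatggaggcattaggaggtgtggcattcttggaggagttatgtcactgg

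The STAT5 type of motif, TTCNNNGAA, reads the same on both strands. It was found in 1 of the 7 windows of these genes, that of Moxd1 at chr10:24223267-24223516 on the plus strand, where it begins 150 bases before the start and is in capitals. Of all 32851 windows in RefSeq's set, 7.02% hold it. A match of letters is a description and not a binding site, and this window is short.
Moxd1: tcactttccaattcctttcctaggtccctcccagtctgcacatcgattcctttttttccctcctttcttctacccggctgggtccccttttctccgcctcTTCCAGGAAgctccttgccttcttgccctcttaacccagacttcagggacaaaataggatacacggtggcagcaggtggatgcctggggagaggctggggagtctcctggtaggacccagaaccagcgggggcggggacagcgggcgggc

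Hsd3b5 encodes a member of the 3-beta-hydroxysteroid dehydrogenase family that in mouse liver works mainly as a reductase of 3-ketosteroids, inactivating steroid hormones, and that is found in adult males. Its probe lies at chr3:98422576-98422635 in build mm9. Its fluorescence was 523 at 0 weeks, 10056 at 5 weeks, 8634 at 10 weeks and 1821 at 15 weeks. The gene was low at the start, high on both middle arrays and between these levels at the end. On the scaled log2 axis the levels were 1.33, 5.60, 5.48 and 2.75 in that order. The 5-week level was 19.3-fold above the 0-week level, the second highest log2 difference among 17092 measured genes. The 5-week and 10-week arrays differed by 0.12 on the log2 scale, within the error of 0.20 that the scanning software gives such a difference. From 10 to 15 weeks the level dropped by 2.73, or 6.65-fold, and 14 of 17487 measured genes had a larger drop. What remained at 15 weeks was 13.8% of the highest level, still 2.67-fold above the level at 0 weeks.

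Hsd3b2 and Hsd3b3 belong to the same family and to the branch that makes active steroids by dehydrogenation and isomerisation. The Hsd3b3 probe (chr3:98545455-98545514, mm9, minus strand) read 5.97, 6.51, 6.80 and 6.31 at 0, 5, 10 and 15 weeks. It was highest at 10 weeks, 1.78-fold above 0 weeks, and no pair of arrays differed by 2-fold. It thus had a hump of small size where Hsd3b5 had a large one. The sign of its difference between 15 and 5 weeks, −0.21, depended on the scaling and was 0.25 with spike-in controls. Around its spot, 7 of 48 neighbouring spots were bright at 10 weeks, meaning more than 2-fold above their mean on the other arrays.

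The 3 probes of Hsd3b2 disagreed with each other. The brightest (A_55_P2132812, chr3:98513725-98513784) read 4.09, 4.03, 3.93 and 3.62, lowest at 15 weeks. Probe A_55_P2023114 (chr3:98515703-98515762) read 2.56, 3.38, 3.74 and 2.97, and probe A_55_P2036547 (chr3:98515054-98515113) read 1.53, 2.09, 2.91 and 2.54. Both had their highest level at 10 weeks, 2.27-fold and 2.60-fold above 0 weeks. A hump is therefore seen with the 2 probes whose accession is the RefSeq transcript, and not with the brightest, which was designed on an Ensembl transcript. At 15 against 0 weeks they differ in sign, from −0.47 for the brightest to 1.01 for the dimmest. Around the spot of A_55_P2023114, 6 of 48 neighbouring spots were bright at 5 weeks and 2 at 10 weeks.

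**Figure D1:**
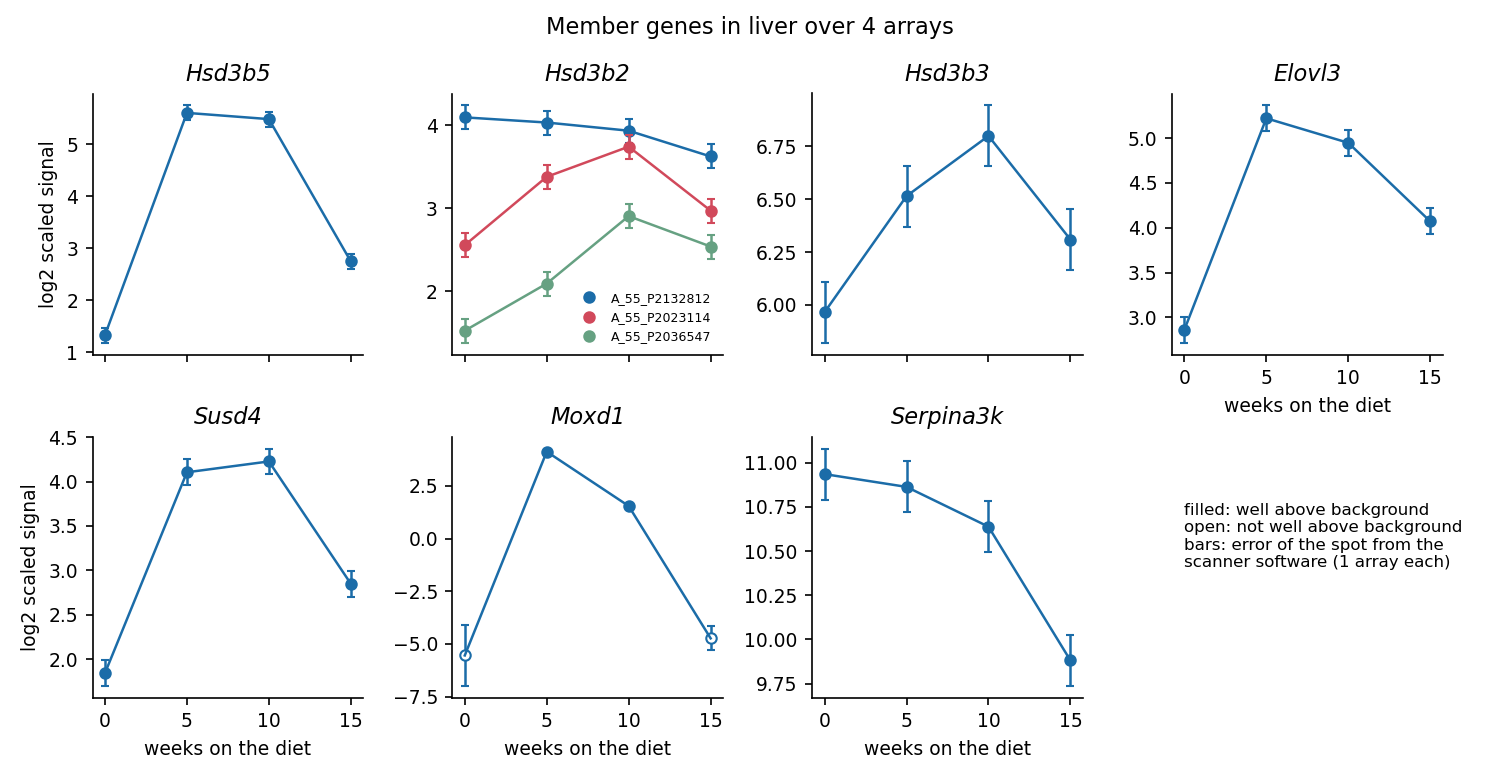
Scaled log2 signal of every probe of the 7 genes by weeks on the diet, with 1 array per time point and open symbols where the spot was not well above background. Hsd3b5, Elovl3, Susd4 and Moxd1 stand higher at 5 weeks than at 0 weeks and lower at 15 than at 5 weeks, while Serpina3k is highest at 0 weeks.

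Elovl3 encodes an elongase that lengthens saturated and monounsaturated fatty acids to very long chains, and in mouse liver it is male-biased and cycles with the time of day. Its probe (chr19:46209762-46209821, mm9, plus strand) read 2.86 at 0 weeks, 5.22 at 5 weeks, 4.95 at 10 weeks and 4.07 at 15 weeks. The level was highest at 5 weeks and declined on each later array. It was 5.13-fold higher at 5 than at 0 weeks, and 30 measured genes had a larger difference. At 15 weeks it was 2.22-fold below 5 weeks, at 45.0% of its highest level. That last difference was near the 2-fold limit. It was −1.15 on the log2 scale as scaled here, and −0.97, −0.88 and −0.70 with the 75th percentile of detected probes, quantile normalization and spike-in scaling. Relative to the median measured gene it was −0.94. The hour at which the livers were taken is not given in the sources used here, and its part in the Elovl3 values was not tested.

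Susd4 encodes a membrane protein with sushi domains, the repeats found in regulators of complement. Its probe (chr1:184825726-184825785, mm9, plus strand) read 1.84, 4.10, 4.23 and 2.85 at 0, 5, 10 and 15 weeks. The 2 middle arrays were again high and close together. The 5-week level was 4.79-fold and the 10-week level 5.21-fold above 0 weeks. Between 10 and 15 weeks Susd4 dropped by 1.38, or 2.60-fold, to 38.5% of its highest level. With spike-in scaling that drop was −0.78 and below 2-fold. At 15 weeks it stood 2.01-fold above 0 weeks, just past the limit.

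Moxd1 encodes a copper-dependent monooxygenase of the endoplasmic reticulum related to dopamine beta-hydroxylase. Its spot (chr10:24022208-24022266, mm9, plus strand) had a fluorescence of 4.46 at 0 weeks, 3607 at 5 weeks, 564 at 10 weeks and 10.2 at 15 weeks. The first and the last were not well above background, so that only bounds can be given against them. Moxd1 was at least 209-fold higher at 5 than at 0 weeks, at least 50.2-fold lower at 15 than at 10 weeks, and at least 299-fold lower at 15 than at 5 weeks. With normexp background correction the bounds were smaller, at 44.2-fold, 10.1-fold and 55.0-fold. All bounds set the brighter level against the higher of the dim probe's own level and the lowest level well above background on that array. Unlike Hsd3b5 and Susd4, it was already 5.97-fold lower at 10 than at 5 weeks, and 14 of 17106 measured genes had a larger drop there. Around its spot, 0 of 48 neighbouring spots were bright at 5 weeks and 1 at 10 weeks. Of the adipocyte markers Adipoq, Plin1 and Retn were well above background at 5 weeks alone and Lep on no array. Cfd, Car3 and Fabp4 were above it on all 4 arrays, Cfd and Car3 highest at 10 weeks and Fabp4 at 15 weeks. Of the 7 markers 6 were above background at 5 weeks and 3 on each of the others. The log2 of their summed levels, dim spots included, was 6.46, 8.02, 9.30 and 8.91 over the 4 times. Car3 alone read 6.35, 7.85, 9.24 and 8.81, so that sum mostly follows Car3. The part of the adipocyte markers in the Moxd1 value was not tested.

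Serpina3k encodes contrapsin, a serine protease inhibitor that hepatocytes secrete. Its probe (chr12:105583645-105583704, mm9, plus strand) read 10.94, 10.86, 10.64 and 9.88 at 0, 5, 10 and 15 weeks. It was highest at the start, declined on each later array and showed no early gain. At 15 weeks it was 2.08-fold below 0 weeks, a log2 difference of −1.05, and of −0.80 relative to the median measured gene. The difference fell short of 2-fold under every other scaling tried, from −0.98 with the array median to −0.54 with spike-in controls and with quantile normalization. Serpina3k thus lacked the early gain of Hsd3b5, Elovl3, Susd4 and Moxd1.

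Over the 7 genes, 3 were at least 2-fold higher at 5 than at 0 weeks, namely Hsd3b5, Elovl3 and Susd4, and Moxd1 was higher by its bound. None was lower. Of all measured genes 2.31% were higher and 1.56% lower. Between 10 and 5 weeks only Moxd1 of the 7 passed 2-fold, downward, against 1.13% of all measured genes lower and 0.953% higher. From 10 to 15 weeks Hsd3b5 and Susd4 were lower and Moxd1 was lower by its bound, beside 4.07% lower and 3.95% higher over all genes. At 15 against 5 weeks Hsd3b5, Elovl3 and Susd4 were lower, and Moxd1 by its bound, beside 4.31% lower and 4.06% higher. At 15 against 0 weeks the same 3 genes were higher and Serpina3k was lower, beside 5.75% higher and 5.03% lower. The genes were chosen on these contrasts, so nothing is read from their counts against these shares. With 1.5-fold in place of 2-fold, 4 genes rather than 2 were lower at 15 than at 10 weeks, beside 15.5% of all measured genes.

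**Figure D2:**
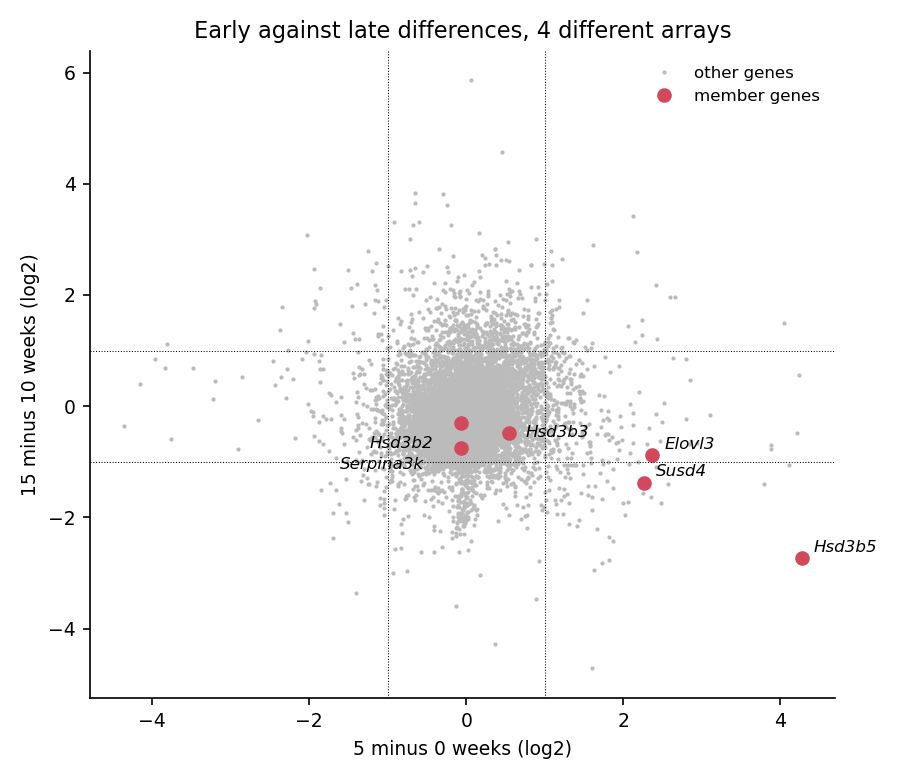
Each point is a gene well above background on all 4 arrays, with the log2 difference of 5 minus 0 weeks on the horizontal axis and of 15 minus 10 weeks on the vertical axis. The 2 differences share no array. Hsd3b5, Elovl3 and Susd4 lie to the right and below 0, at 4.27 and −2.73, 2.36 and −0.88, and 2.26 and −1.38, and Moxd1 is left out because it has only bounds.

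The other male-biased liver genes looked at were 18, of which 16 are on the array and 15 were measured. This list and those that follow were chosen with earlier results of these data known, so their counts describe and test nothing. Between 0 and 5 weeks 7 were higher and none was lower, beside 2.31% higher and 1.56% lower over all measured genes. The median difference was 0.99, beside −0.02 for all measured genes. Over the scalings and settings tried the count higher ran from 5 to 10 and the median from 0.93 to 1.05. Cyp7b1, the oxysterol hydroxylase of the acidic path of bile acid synthesis, read 4.51, 8.30, 6.68 and 5.28 and so was 13.8-fold higher at 5 weeks. C6, a component of the complement attack complex, was 3.90-fold higher, Nudt7, a peroxisomal coenzyme A hydrolase, 3.48-fold, and Egfr, the epidermal growth factor receptor, 2.39-fold. Cyp2d9, a steroid hydroxylase of male liver, read 8.01 on both arrays. Cyp2d9 thus showed no early gain, and the list was not uniform in this comparison.

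Between 5 and 15 weeks 9 of the 15 male-biased genes were lower and 1, Cib3, was higher. Over all measured genes 4.31% were lower and 4.06% higher. The list median was −1.16, beside −0.21 for all genes. Over the scalings and settings tried the count lower ran from 6 to 9 and the median from −1.16 to −0.71. Cyp7b1 was 8.08-fold lower at 15 weeks. Cspg5 was 4.91-fold lower, C8b, a further complement component, 3.73-fold, and Slco1a1, a male-biased organic anion transporter, 3.67-fold. C8b read 7.15 and 7.22 at 0 and 5 weeks, so its later drop had no early gain before it, as with Serpina3k. The same held for Cyp2d9, Ugt2b1 and Gstp1. Their early differences were −0.005, 0.07 and −0.11, and at 15 against 5 weeks −1.24, −1.16 and −1.06. Of the other genes lower at 15 weeks, Cyp7b1, Nudt7, Cspg5 and Egfr had been at least 2-fold higher at 5 than at 0 weeks. Slco1a1 had been 1.99-fold higher.

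Of the 21 female-biased genes 20 are on the array and 12 were measured at both 0 and 5 weeks. None was higher at 5 weeks and 5 were lower, beside 2.31% higher and 1.56% lower over all measured genes. The list median was −0.77. Cyp3a41b, a female-biased cytochrome P450 gene, read 3.11, −0.85, 0.83 and 1.68, and Cyp3a16, a related gene, read 5.22, 1.39, 2.96 and 3.65. Both were at their lowest at 5 weeks, 15.6-fold and 14.3-fold below 0 weeks, and near-identical relatives can share their probes. Slco1a4, an anion transporter, was 5.15-fold lower. Cyp39a1, which hydroxylates oxysterols, was 4.90-fold lower. A further 5 genes have only bounds, among them Cyp2b10, at least 1059-fold lower at 5 weeks. From 5 to 15 weeks 4 of 12 were higher and 2 lower, beside 4.06% and 4.31% of all measured genes. Ntrk2 was 6.42-fold higher, Cyp3a41b 5.79-fold and Cyp3a16 4.80-fold, and Sult1e1, which sulphates oestrogens, was 4.29-fold lower. The median there was −0.16 and changed sign with the scaling, up to 0.30. At 15 against 0 weeks 11 of 15 were lower and 1 higher, beside the 5.03% and 5.75% of all measured genes given above. The median was −1.29. With spike-in scaling 6 were lower and the median was −0.78.

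**Figure D3:**
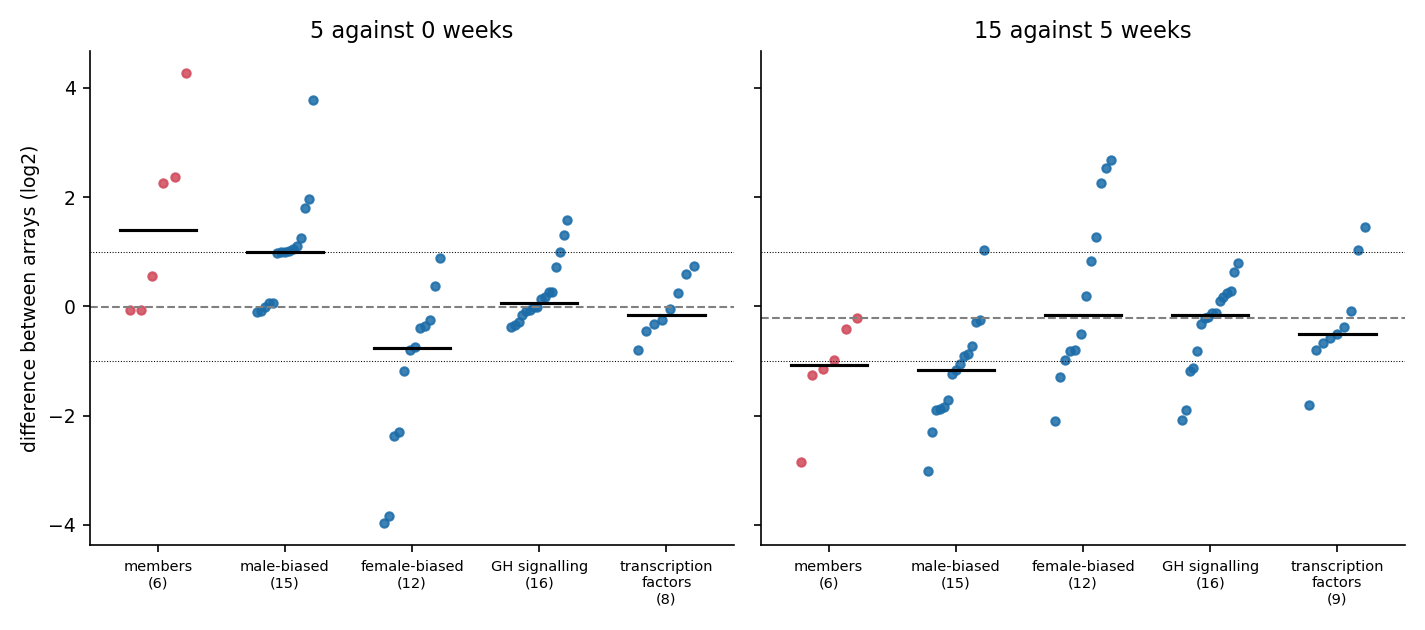
Log2 difference of each measured gene of the related lists, at 5 against 0 weeks and at 15 against 5 weeks, with the list median as a black bar, the median of all measured genes as a dashed grey line and 2-fold as dotted lines. The median of the male-biased list is 0.99 in the first comparison and −1.16 in the second, and that of the growth hormone signalling list is 0.07 and −0.16.

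All 16 genes of growth hormone receptor signalling were measured. The receptor Ghr read 6.72, 6.63, 6.98 and 6.41, Jak2 read 2.15, 1.99, 2.21 and 2.24, and Stat5b read 3.58, 3.21, 3.39 and 3.49. None of these 3 genes, which carry the signal, differed by 2-fold between any times. The 4 genes of the SOCS family on the list, which encode feedback inhibitors of cytokine receptors, took different courses. Socs2 read 0.81, 2.39, 0.94 and 0.30, and was 2.99-fold higher at 5 than at 0 weeks and 4.25-fold lower at 15 than at 5 weeks. Cish read 1.11, 2.42, 2.27 and 0.52, with 2.47-fold and 3.72-fold for the same comparisons. Socs3 read 1.24, 2.23, 2.73 and 2.10, highest at 10 weeks and within 2-fold in both of these comparisons. At 5 against 0 weeks Socs3 was 1.98-fold higher, just short of the limit. Socs1 read −2.16, −1.44, −0.94 and −0.82, highest at 15 weeks and 2.53-fold above 0 weeks. At 15 against 0 weeks the difference was −0.51 for Socs2 and −0.59 for Cish, within 2-fold, and 0.002 and −0.08 with spike-in scaling. Hsd3b5, Elovl3 and Susd4 were at least 2-fold above their 0-week level there. In all, 2 genes were higher at 5 than at 0 weeks and none lower, beside 2.31% and 1.56% of all measured genes. Over the scalings and settings tried that count higher ran from 2 to 3. At 15 against 5 weeks 4 were lower and none higher, beside 4.31% and 4.06% of all measured genes. The other two were Igfbp2, which binds insulin-like growth factors, 2.27-fold lower, and Igfals, which holds them in the circulating complex, 2.19-fold lower. With spike-in scaling 2 were lower and 2 higher, and the list median moved from −0.16 to 0.29.

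Of 10 transcription factors known from sex-biased liver expression, 8 were measured at 0 and 5 weeks and none differed by 2-fold. Cux2, a repressor of male-biased genes found in female liver, was well above background at 0 weeks alone, at −2.55. At 15 against 5 weeks 2 of 9 were higher and 1 lower, beside 4.06% and 4.31% of all measured genes. Bcl6, a repressor that binds many STAT5 sites, read 3.22, 2.77, 3.44 and 4.23, lowest at 5 and highest at 15 weeks, 2.74-fold apart. Onecut1, a hepatocyte factor that works beside STAT5, read 3.89, 4.64, 4.80 and 2.83, and was 3.51-fold lower at 15 than at 5 weeks.

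No measured relative had an early gain of 2-fold. In the Hsd3b family, Hsd3b1 and Hsd3b4 were not well above background on any array, Hsd3b6 read −0.75, −0.22, 0.21 and −0.41, and Hsd3b7, which works on bile acid precursors, 8.78, 8.92, 8.97 and 8.64. Hsd3b6 had a small hump with its top at 10 weeks, as Hsd3b3 had. Of 5 other elongases measured none differed by 2-fold between 0 and 5 weeks, among them Elovl5 and Elovl6, which serve polyunsaturated and long saturated chains. The 7 measured relatives of Serpina3k split at 15 against 0 weeks: 3 were lower, 2 higher and 2 within 2-fold. Of all measured genes 5.03% were lower and 5.75% higher there. With spike-in scaling 1 of the 7 relatives was lower. Serpina3h was 6.90-fold lower, Serpina3c dropped by 1.48 and Serpina3m by 1.32, and Serpina3g was 2.51-fold and Serpina3f 2.26-fold higher. These genes sit in 1 cluster of near copies, so single values are uncertain. Among 4 measured relatives of Susd4 none differed by 2-fold between 0 and 5 weeks, and Susd3 dropped by 1.04 from 5 to 15 weeks. Of the relatives of Moxd1, Dbh and Moxd2 were not well above background on any array, and Pam, which amidates peptides, read −1.52, −1.21, −1.62 and −0.31. None of 11 other enzymes of hepatic steroid metabolism differed by 2-fold between 0 and 5 weeks, and at 15 against 5 weeks Hsd17b10 alone was lower, where it dropped by 1.05.

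**Figure D4:**
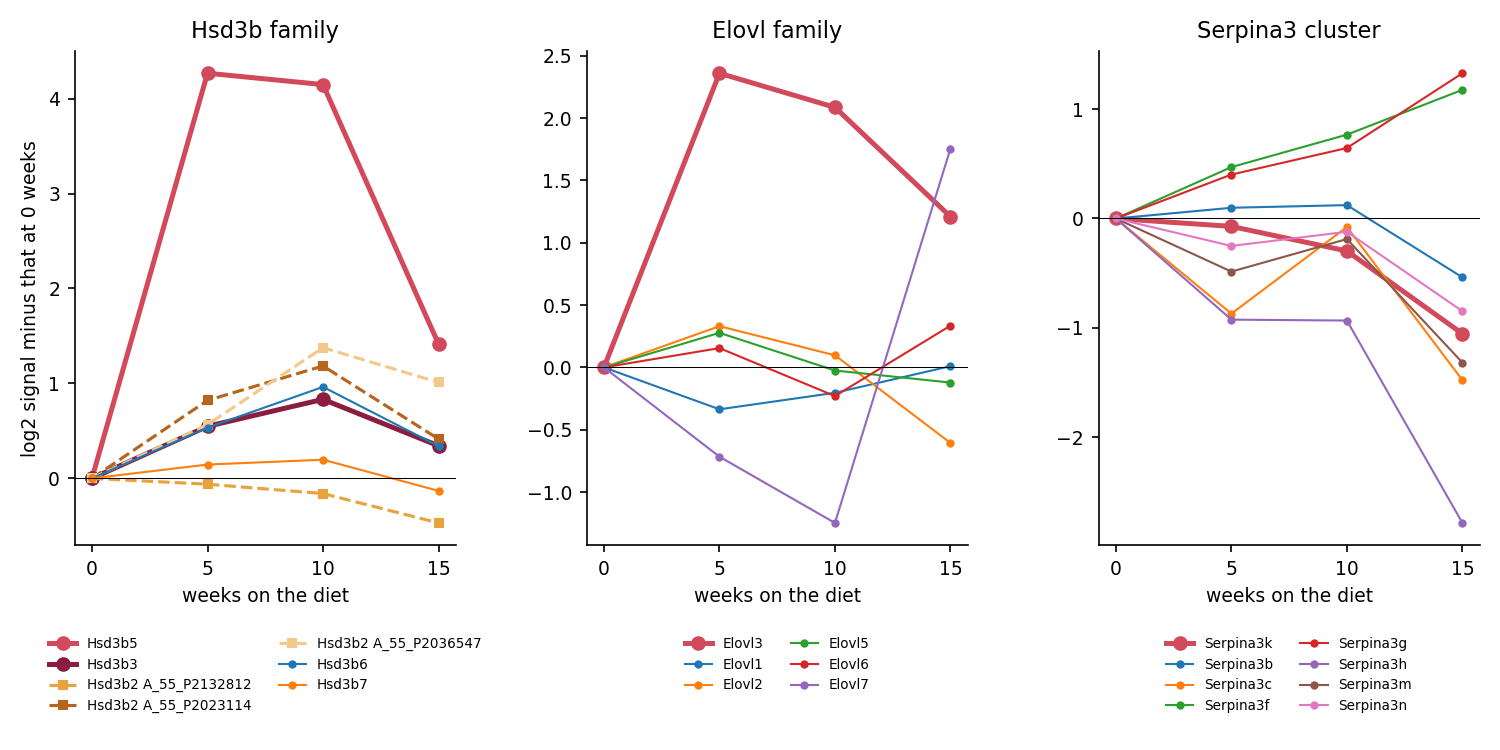
Log2 signal minus that at 0 weeks for Hsd3b5, Hsd3b2, Hsd3b3, Elovl3 and Serpina3k, drawn with heavy or dashed lines, and for their measured relatives, drawn thin, with 1 array per time point and a separate vertical scale in each panel. Hsd3b5 and Elovl3 stand far above all of their relatives at 5 weeks, at 4.27 and 2.36, while Serpina3k lies among relatives that go both ways.

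In bulk liver fewer hepatocytes and less RNA per hepatocyte cannot be told apart. The log2 of the summed hepatocyte marker levels was 13.55, 13.36, 13.48 and 12.88 at the 4 times, and the sums below are given likewise. At 15 against 5 weeks 1 of 10, Cps1, was lower, by 1.59, and the median was −0.51 beside −0.21 for all measured genes. Over the scalings and settings tried the hepatocyte median ran from −0.57 to −0.009. At 15 against 5 weeks Hsd3b5 was lower by 2.85, Elovl3 by 1.15 and Susd4 by 1.25. The 10 markers of Kupffer cells and macrophages, all above background, summed to 7.28, 8.10, 8.42 and 8.62, with 4 of 10 higher at 15 than at 5 weeks, 3 of 10 higher at 15 than at 10 weeks and none lower. The 10 markers of stellate cells and fibroblasts summed to 7.36, 7.51, 7.03 and 8.14, and 4 were higher at 15 than at 5 weeks and 6 at 15 than at 10 weeks, with medians of 0.85 and 1.45. Of the 7 bile duct markers 6 were measured, all but Cftr. At 15 weeks 4 of them were higher than at 5 weeks and 1, Krt7, lower. Above their 10-week level were 5, and the 2 medians were 1.13 and 1.74. Krt7 read −1.06, 2.99, −2.81 and −1.32, highest at 5 weeks as Moxd1 was. At 5 against 0 weeks 1 of the 6, Krt7, was higher and 2 were lower. Of all measured genes 4.06% were higher and 4.31% lower at 15 than at 5 weeks. At 15 against 10 weeks these shares were 3.95% and 4.07%. The part of these cell types in the lower levels at 15 weeks was not tested.

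The genes whose course over the 4 arrays lay closest to each leading gene were found by the root mean square distance of log2 levels, each gene centred on its own mean, among 12519 genes. Closest to Hsd3b5 were Irx1 at 0.69, Cyp7b1 and Scara5 at 0.74, Prok1 at 0.80 and Dbp, a clock output factor, at 0.85, where the median gene was at 1.81. Susd4 followed in place 6 and Elovl3 in place 11, while Hsd3b3 was in place 383, Serpina3k in place 5676 and Hsd3b2 in place 6270. Closest to Elovl3 were Cebpe and Prss12 at 0.16, Arrdc3 at 0.18, Susd4 at 0.19 and Ctrc at 0.20. Closest to Susd4 were Elovl3 at 0.19, Prss12 at 0.23, Cebpe and Dbp at 0.24 and Scara5 at 0.25. The genes followed here had been picked with their values on these arrays in view. Their places by distance from each other therefore describe them and test nothing. Elovl3 and Susd4 were each among the nearest to the other. Seen from these 2 genes Hsd3b5 was far down, in place 6418 from Elovl3, at 0.95 where the median gene was at 0.94, and in place 1245 from Susd4. The distance counts the size of a course as well as its shape. Irx1, Scara5, Prss12 and Ctrc were not well above background at 0 weeks, and with 4 points many courses look alike. Around the Prok1 spot up to 13 neighbouring spots were bright on a single array, and at most 6 around the other genes listed as closest.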

How the data were processed

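Liver RNA of 4 time points was labelled with Cy3 and hybridised to 1-colour Agilent arrays, per the labels' protocols. The deposited scanner files came from Agilent Feature Extraction 10.7.3.1 and give, per the file headers, a processed intensity per spot, background-subtracted, on a linear scale. A value table of linear intensity that the authors deposited equals that signal divided by the array's median, so its columns have a median of 1. Genes are not centred.

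From the scanner files, each processed signal was divided by the 75th percentile of the non-control spots on its array and log2-transformed with Python 3.11.15 and pandas 2.3.3. Marked (uneven or outlier) spots were left out and spots of a probe averaged. The brightest probe stood for a gene. The RefSeq table named 27598 probes through their accession, 3493 through the symbol and 393 through an old symbol. The other 24197 kept the file's name. Probe positions are those of the scanner files, in mm9. Normexp, with an offset of 50, used limma 3.58.1. Counting was tested on simulated data. The 7 genes and all lists were chosen with earlier results of these data known. From each list the 4 measured genes with the largest difference past 2-fold were named, and all relatives were looked at. Other genes, C8b's early levels, Cyp2d9, Cux2, Ghr, Jak2 and Stat5b among them, were named after their values were seen.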

Additional observations from a re-analysis of the deposited data

How the results depend on the processing

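No member changed direction past 2-fold under any alternative. The early gains of Hsd3b5, Elovl3 and Susd4 passed 2-fold under all of them. The loss of Hsd3b5 from 5 to 15 weeks did too. With a 3-fold threshold 0 members were higher at 15 than at 0 weeks, where 3 were at 2-fold (2.45% of all measured genes past 3-fold). The 1 member lower at 15 than at 0 weeks, Serpina3k, was not called (0 members lower) with the array median, the 75th percentile of detected probes, spike-in controls, quantile normalization, normexp, the authors' table or a 3-fold threshold, under which 1.65% to 4.15% of all measured genes were lower. At 15 against 10 weeks 2 members were lower, and 1 with spike-in scaling (1.11% of all measured genes), 4 at 1.5-fold (15.5%) and 1 at 3-fold (1.11%). At 15 against 5 weeks 3 were lower, and 1 with spike-in scaling (1.93%) and 1 at 3-fold (1.57%). The count was 2 with the 75th percentile of detected probes (533 of 17420 measured genes) and with quantile normalization (586). It was 4 at 1.5-fold (2583). With normexp the bounds of Moxd1 were 44.2-fold, 10.1-fold and 55.0-fold at 5 against 0, 15 against 10 and 15 against 5 weeks. Over all genes called at 15 against 5 weeks, 48.5% were higher, and 62.0% with the array median, 59.7% with quantile normalization and 83.5% with spike-in scaling. At 15 against 0 weeks the share was 53.3%, and 86.6% with spike-in scaling. Each time point has 1 array, so no array could be left out and precision rests on spot error alone. No paired analysis was possible because no time point has more than 1 array.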

Other observations

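Some genes of the related lists stood highest at 15 weeks, when Hsd3b5, Elovl3 and Susd4 were well below their peak. Elovl7, an elongase of the same family as Elovl3, read −2.04, −2.75, −3.29 and −0.28 at 0, 5, 10 and 15 weeks and was 3.38-fold higher at 15 than at 0 weeks. Ntrk2, the receptor for brain-derived neurotrophic factor, read −1.34, −0.45, −0.77 and 2.23, which is 11.9-fold higher at 15 than at 0 weeks. It was the only female-biased gene of the list that was at least 2-fold higher in that comparison. These values rest on 1 array each, and neither gene's direction changed between scalings at 15 against 5 weeks.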
